A study of Homo sapiens with 9 samples.

Results

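The genes examined here were 10 genes of the endoplasmic reticulum (ER) that encode its chaperones and the machinery of the unfolded protein response: HSPA5, XBP1, DNAJB9, HSP90B1, SDF2L1, HERPUD1, DNAJC3, PDIA4, CALR and EDEM1. They were given as a list of gene names, drawn up with earlier results of these data known, and all 10 were among the 18444 genes with enough reads to be tested. Nuclear RNA was sequenced from U2OS cells, a human osteosarcoma line, in 9 libraries with 3 biological replicates in each of 3 groups. The groups were cells transfected with siDyskerin, an siRNA against dyskerin (the pseudouridine synthase encoded by DKC1), cells transfected with siGAR1, an siRNA against the H/ACA protein GAR1, and cells transfected with siControl, a nontargeting siRNA. Every group received 15 nM siRNA for 48 hours, no group was left untransfected, and siControl came from another supplier than the siRNAs against dyskerin and GAR1. The study concerns pseudouridylation of mRNA by dyskerin and its H/ACA complex and how this affects translation. Neither siRNA was directed at an ER gene.

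Proteins that enter the ER are folded there by lumenal chaperones, and an excess of unfolded clients activates the sensors IRE1, PERK and ATF6 in the ER membrane. IRE1 (ERN1) cuts a short intron out of XBP1 mRNA in an unconventional splicing reaction outside the spliceosome, and the shifted reading frame encodes an active transcription factor. ATF6 is released by proteolysis in the Golgi, and together with XBP1 it acts on genes of chaperones and of ER-associated degradation through promoter motifs known as ER stress response elements (ERSE), whereas PERK slows translation and raises ATF4.

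The promoters of 6 of the 10 genes held such a motif, and these are shown because the motif is a known route from the sensors to their target genes. The windows were RefSeq promoters of build GRCh38.p14, 300 bases each, and both strands were searched. The ERSE was searched as CCAAT and CCACG with 9 bases of any kind between them, and was found in 27 of 35116 promoters (0.0769%), among them those of HSPA5, XBP1, HSP90B1 and CALR. ERSE-II was searched as ATTGG and CCACG with 1 base of any kind between them, and was found in 19 promoters (0.0541%), among them those of HERPUD1 and SDF2L1. These matches are printed in the direction of the motif, with its fixed bases in capitals.
HSPA5: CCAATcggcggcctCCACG
XBP1: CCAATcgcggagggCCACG
HSP90B1, match farther from the start: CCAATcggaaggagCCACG
HSP90B1, match nearer the start: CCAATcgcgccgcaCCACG
CALR: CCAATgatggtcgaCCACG
HERPUD1: ATTGGgCCACG
SDF2L1: ATTGGtCCACG
The HSPA5 match (chr9:125241391-125241409) began 66 bases before the RefSeq start and the XBP1 match (chr22:28800603-28800621) 52 bases before it, both on the strand of the gene. In HSP90B1 the matches lay at chr12:103930216-103930234 on the strand of the gene and at chr12:103930321-103930339 on the other strand. The CALR match (chr19:12938384-12938402) and the SDF2L1 match (chr22:21642114-21642124) were on the strand opposite to the gene, and the HERPUD1 match (chr16:56932025-56932035) was on its own strand. No window of DNAJB9, DNAJC3, PDIA4 or EDEM1 held either motif in these letters, and the shorter element TGACGTGG (UPRE), which is in 256 promoters (0.729%), was in none of the 12 windows of the 10 genes. A match is a description of the letters and not evidence of binding.

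The deposited read values summed to 48838756 to 90698675 per library over all transcripts. A read that fits several transcripts appears to be listed with each, so these sums are not counts of distinct reads. The silenced genes followed the labels: DKC1 had 3075, 3124 and 3099 normalized counts in siDyskerin against 20937, 22716 and 20777 in siControl, and GAR1 had 92.3, 83.9 and 115 in siGAR1 against 598, 594 and 664 in siControl. Normalized counts are reads summed over the transcripts of a gene and scaled to the mean library. The cells had the mesenchymal markers VIM and SPARC (5 of 7 osteoblastic and mesenchymal markers were tested, with COL1A2 and TWIST1 below 1 CPM in every library), while the 7 epithelial markers summed to 5.42 to 7.70 CPM over the 9 libraries. In bulk RNA, fewer cells with a transcript and less of it per cell cannot be told apart. A difference passed at a Benjamini-Hochberg adjusted p under 0.01 in edgeR's quasi-likelihood test over all 18444 genes, which is the test behind every adjusted p given here unless another is named.

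CALR, HSPA5 and HSP90B1, all chaperones, were the most abundant of these RNAs. Per length, as TPM, which is scaled by transcript length and by depth, of the transcript with the most reads, calreticulin (CALR) stood highest, with 78.8, 76.1 and 77.9 TPM in siDyskerin, 77.1, 85.0 and 79.3 in siGAR1 and 101, 93.5 and 92.1 in siControl. The siControl libraries lay above all others for this gene. HSPA5, the ER Hsp70 known as BiP, had 55.2, 55.6 and 53.4 TPM in siDyskerin, 53.8, 52.8 and 50.6 in siGAR1 and 66.2, 64.1 and 66.2 in siControl. HSP90B1, the ER Hsp90 known as GRP94, averaged 57.5 ± 2.29 TPM in siDyskerin, 60.2 ± 1.43 in siGAR1 and 63.1 ± 6.61 in siControl (SD, n = 3 each). In siControl the levels of HSPA5 and HSP90B1 overlapped, and this was the only pair of neighbours in the order of levels whose siControl ranges did. Below them in siControl came XBP1 with 24.5 ± 0.67 TPM, SDF2L1 with 19.9 ± 1.30, PDIA4 with 10.7 ± 1.05, HERPUD1 with 7.72 to 8.54, EDEM1 with 6.13 ± 0.25, DNAJC3 with 4.52 ± 0.29 and DNAJB9 with 3.68 ± 0.22 (SD, n = 3 each). For the transcripts taken here, the order of the means changed in both knockdowns. In siDyskerin EDEM1 averaged 8.82 ± 0.21 TPM and stood above HERPUD1 at 7.24 ± 0.17 TPM without overlap (SD, n = 3 each), and HSP90B1 averaged above HSPA5 with overlapping libraries. In siGAR1 HSP90B1 stood above HSPA5 without overlap, and EDEM1 averaged 7.27 ± 0.20 TPM and overlapped with HERPUD1 at 7.09 ± 0.14 TPM (SD, n = 3 each). HERPUD1 was taken as HERPUD1-204, of 2946 bases. The shorter coding transcript HERPUD1-201, of 1862 bases, had nearly as many normalized reads (mean 1188 against 1275 in siDyskerin and 1315 against 1421 in siControl). The place of HERPUD1 beside EDEM1 and PDIA4 therefore depends on the transcript taken. The levels of other genes with several transcripts can depend on it too. DNAJC3 was taken as DNAJC3-202, of 5591 bases, with a normalized mean of 1478 in siControl. DNAJC3-201, of 2273 bases, had 762 there.

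**Figure D1:**
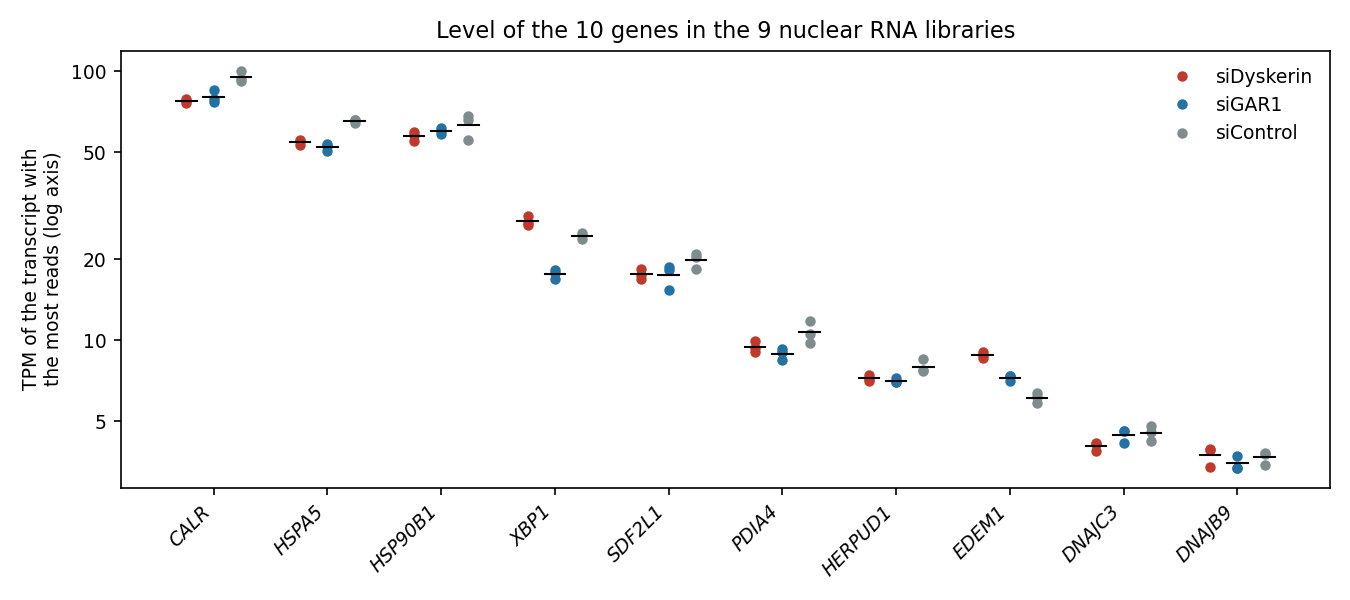
Level of the 10 genes, as TPM of the transcript with the most reads on a log axis, in siDyskerin, siGAR1 and siControl. Points are libraries and lines are group means, ordered by the siControl mean from 95.5 TPM for CALR to 3.68 TPM for DNAJB9.

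After dyskerin knockdown, EDEM1 rose and HSPA5 and CALR fell, which is 1 gene higher and 2 lower of 10, while 6.4% of all tested genes passed in this comparison (3.08% higher and 3.32% lower). After GAR1 knockdown, XBP1 fell and no other member passed, beside 3.42% of all genes (1.63% higher and 1.79% lower). Between the knockdowns XBP1 was higher in siDyskerin and no other member passed, beside 5.39% of all genes (2.61% higher and 2.78% lower). None of the 10 passed with an absolute log2 fold change above 1 in any comparison, while 0.938% of all genes did in siDyskerin against siControl, 0.282% in siGAR1 against siControl and 0.721% between the knockdowns. The median log2 fold change of the 10 genes was -0.16 in siDyskerin minus siControl, where the median of all genes was 0.0033, and -0.18 in siGAR1 minus siControl, where the median of all genes was 0.0089. Both comparisons share the siControl libraries.

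**Figure D2:**
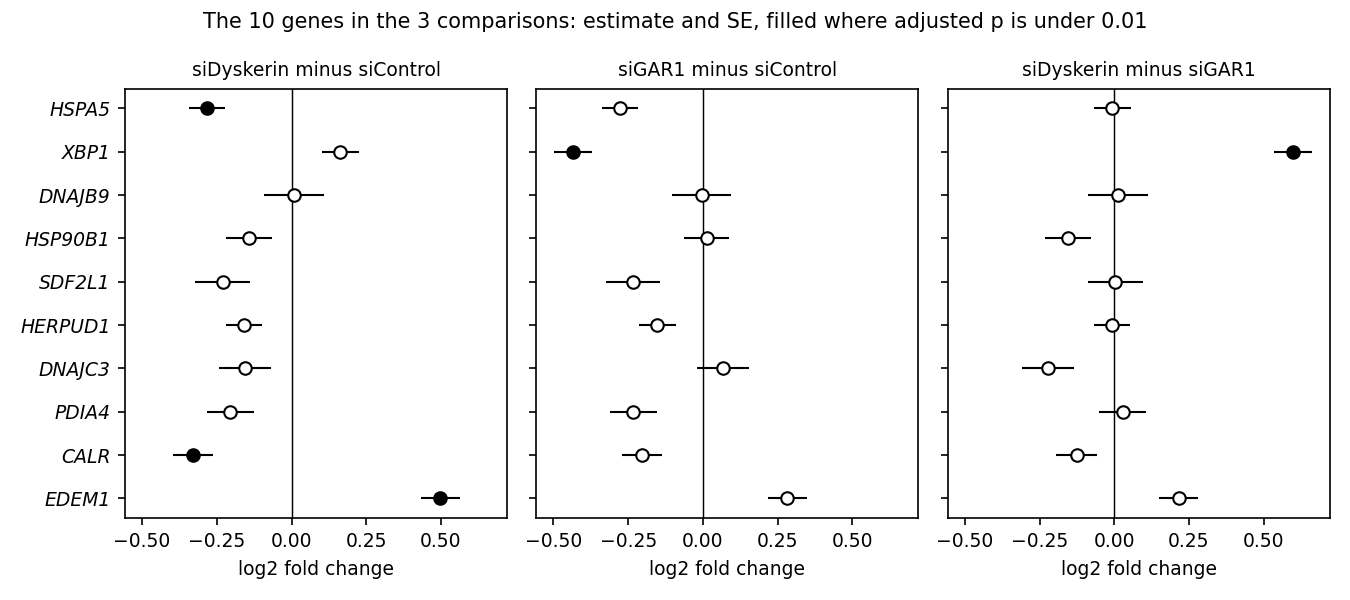
Log2 fold changes of the 10 genes in the 3 comparisons, with bars for the SE derived from the edgeR F statistic and filled points where the adjusted p was under 0.01. Filled points are EDEM1, HSPA5 and CALR in siDyskerin minus siControl and XBP1 in the other 2 panels.

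The libraries of 7 of the 10 genes did not overlap between siDyskerin and siControl (2 higher, 5 lower), which held for 31.4% of all genes (16.0% higher and 15.5% lower). In siGAR1 and siControl, 7 genes did not overlap (1 higher, 6 lower), beside 27.7% of all genes (13.6% higher and 14.1% lower). Between siDyskerin and siGAR1 there were 4 (2 in each direction), beside 29.8% of all genes (15.1% higher and 14.6% lower). HSPA5, CALR, SDF2L1, HERPUD1 and PDIA4 were lower than siControl in every library of both knockdowns, and EDEM1 was higher in every library of both. The share of all genes that did so in both knockdowns was not computed. Both comparisons use the same siControl libraries, so they are not independent. XBP1 lay above siControl in every siDyskerin library and below it in every siGAR1 library.

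**Figure D3:**
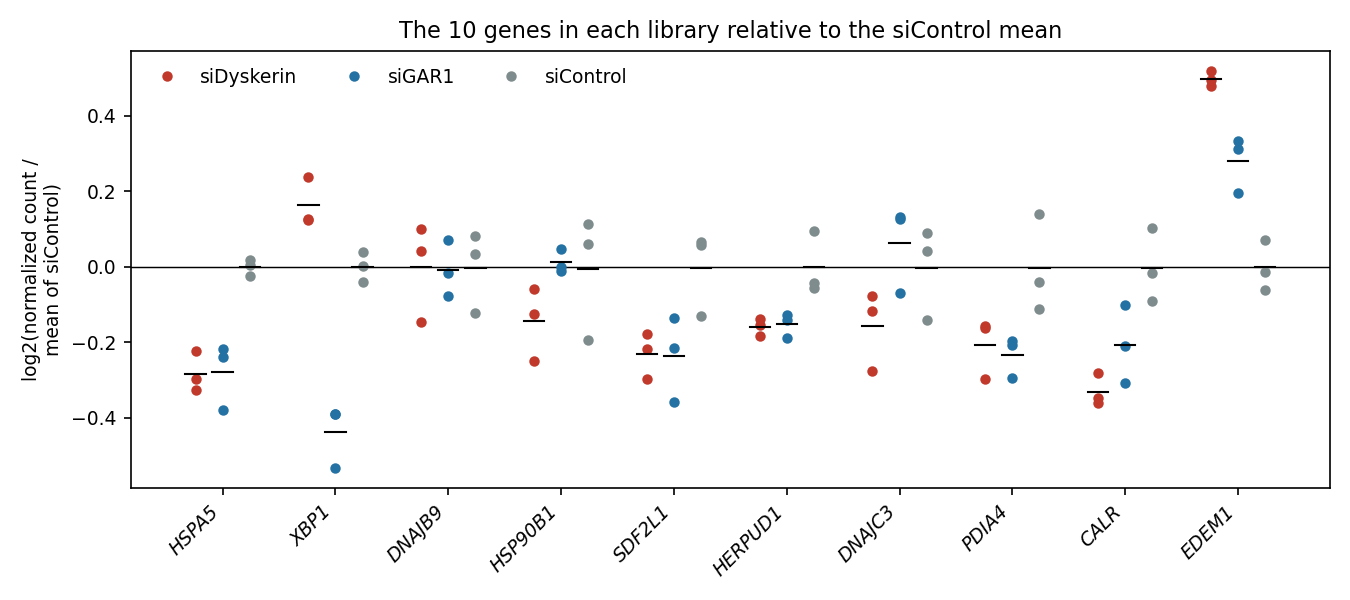
Log2 of the normalized count of each library over the siControl mean, for the 10 genes. Points are libraries and lines are means of the log2 values in siDyskerin, siGAR1 and siControl. EDEM1 lies above 0 in all 6 knockdown libraries and XBP1 lies on opposite sides of 0 in the 2 knockdowns.

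XBP1, the transcription factor of the IRE1 arm (chromosome 22, 28794555 to 28800597, minus strand, GRCh38), was the only one of the 10 that passed between the knockdowns. It had 12755, 13796 and 12789.5 normalized counts in siDyskerin, 8939, 8929.7 and 8093 in siGAR1 and 12028, 11713 and 11379 in siControl. No siGAR1 library reached the lowest siControl library, and every siDyskerin library exceeded the highest siControl library. XBP1 fell by 0.44 on the log2 scale in siGAR1 against siControl (SE 0.06, adjusted p = 0.00086), which is 26.1% lower. In siDyskerin against siControl its log2 fold change was 0.16 (SE 0.06) and did not pass (adjusted p = 0.11). The direct comparison of siDyskerin with siGAR1 gave 0.60 (SE 0.06, adjusted p = 4.5e-05), or 1.52-fold. The calls in siGAR1 against siControl and between the knockdowns held when each library was left out in turn and with every other setting tried.

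The intron that IRE1 removes from XBP1 is annotated in exon 4 of XBP1-201 at chr22:28796128-28796153 on the minus strand (GRCh38, GENCODE 44), where XBP1-202 lacks these 26 bases. The deposited entry of XBP1-202 was an earlier and shorter version (1131 bases, against 1791 in GENCODE 44), and whether it lacks the same bases was not checked. The intron is shown as annotated, in capitals, with 2 bases on each side in lower case. Its first base and the base that follows it are both G, so a placement shifted by that base gives the same spliced sequence. The annotated ends are therefore not given as the cut sites of IRE1.
XBP1-201: ccGCAGCACTCAGACTACGTGCACCTCTgc
Reads listed for XBP1-202 were 37.3%, 37.1% and 37.1% of those listed for both forms in siDyskerin, 37.1%, 37.3% and 36.5% in siGAR1 and 37.1%, 37.0% and 36.6% in siControl. The groups overlapped in each comparison. The difference was 0.24 percentage points in siDyskerin minus siControl and 0.064 in siGAR1 minus siControl (two-sided exact permutation p = 0.3 and 0.8, where 3 libraries against 3 cannot go below 0.1). Reads that fit several transcripts appear to be listed with each of them in these tables. How many of the reads behind this share fit both forms was not tested, so the share is not given as a measure of how much XBP1 was spliced by IRE1. All 6 XBP1 transcripts moved with the gene: their log2 fold changes were 0.58 to 0.67 in siDyskerin minus siGAR1, and all 6 passed.

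EDEM1, which directs misfolded glycoproteins to degradation (chromosome 3, 5187646 to 5219958, plus strand), had the largest change of the 10 genes after dyskerin knockdown. Its libraries had 5563, 5654 and 5497 normalized counts in siDyskerin, 4969, 4898 and 4519 in siGAR1 and 4144, 3783 and 3908 in siControl. The 3 groups did not overlap, with siGAR1 between siDyskerin and siControl. EDEM1 rose by 0.50 on the log2 scale in siDyskerin against siControl (SE 0.07, adjusted p = 0.00018), or 1.41-fold, and this call held in every setting tried. Against the same siControl libraries, siGAR1 had a log2 fold change of 0.28 (SE 0.07) with an adjusted p of 0.016, which did not pass. It passed with DESeq2 (adjusted p = 0.00049). Between the knockdowns the difference was 0.22 (SE 0.06, adjusted p = 0.044) and did not pass. Of its 7 transcripts, 4 rose in siDyskerin against siControl, among them the coding transcript EDEM1-201 (0.52 on the log2 scale) and the retained-intron transcript EDEM1-206 (0.46). These transcripts overlap in sequence and are not independent.

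HSPA5, the chaperone that holds the ER sensors inactive and binds unfolded clients (chromosome 9, 125234853 to 125241382, minus strand), had nearly the same level in the 2 knockdowns. It had 16159, 17009 and 15837 normalized counts in siDyskerin, 17098, 16828 and 15282 in siGAR1 and 20123, 19551 and 19937 in siControl. All 6 knockdown libraries lay below the 3 siControl libraries. HSPA5 fell by 0.28 on the log2 scale in siDyskerin against siControl (SE 0.06, adjusted p = 0.0065), which is 17.8% lower. The log2 fold change in siGAR1 against siControl was also -0.28 (SE 0.06), but the adjusted p of 0.012 did not pass, and the difference between the knockdowns was -0.0060 (SE 0.06, adjusted p = 0.97). The call in siDyskerin was lost without any 1 of the 6 libraries of the comparison (siDyskerin 1, 2 or 3 or siControl 1, 2 or 3), with adjusted p of 0.014 to 0.041 and log2 fold changes of -0.32 to -0.27. HSPA5 passed in siGAR1 against siControl with DESeq2 (adjusted p = 0.00030).

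CALR, a calcium-binding lectin chaperone of glycoproteins (chromosome 19, 12938578 to 12944489, plus strand), had 29886, 31309.9 and 29597 normalized counts in siDyskerin, 32917, 35454 and 30725 in siGAR1 and 40844, 37578 and 35721 in siControl. The knockdown libraries all lay below siControl, and siDyskerin and siGAR1 overlapped. CALR fell by 0.33 on the log2 scale in siDyskerin against siControl (SE 0.07, adjusted p = 0.0047), or 20.5%. The log2 fold change in siGAR1 against siControl was -0.20 (SE 0.07, adjusted p = 0.077), and between the knockdowns it was -0.13 (SE 0.07, adjusted p = 0.26). The siDyskerin call was lost without siControl 1 or 2 or without siDyskerin 1, 2 or 3 (adjusted p of 0.013 to 0.026, log2 fold changes of -0.36 to -0.28). Of the 7 CALR transcripts 6 fell in siDyskerin against siControl, the coding transcript CALR-201 by 0.33 on the log2 scale.

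**Figure D4:**
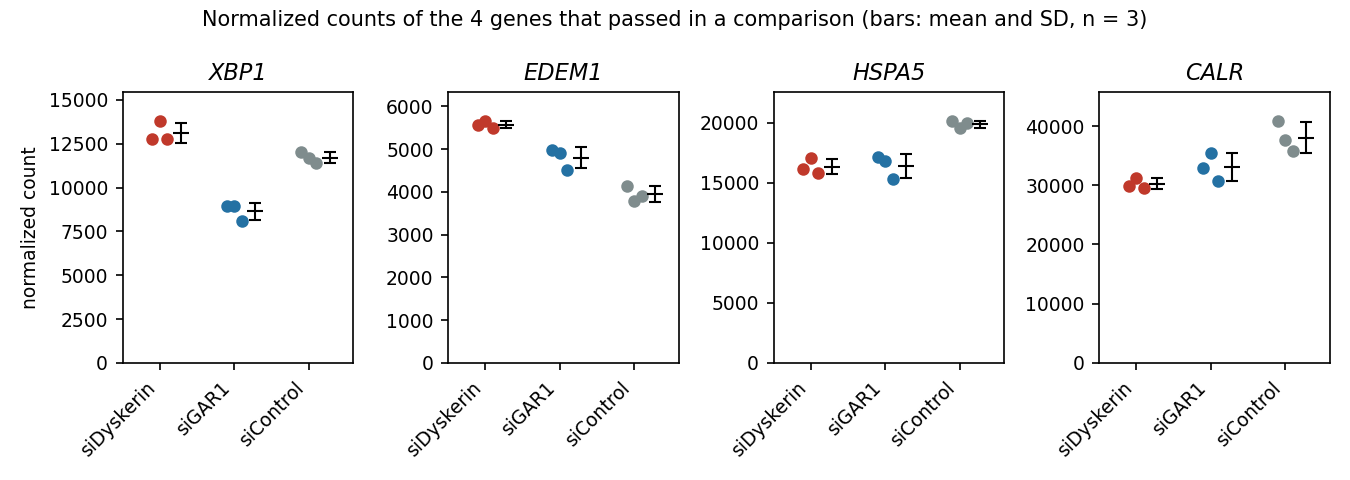
Normalized counts of XBP1, EDEM1, HSPA5 and CALR by library in siDyskerin, siGAR1 and siControl, with the mean and SD of each group (n = 3) beside the points and axes that start at 0. XBP1 is lowest in siGAR1, EDEM1 is highest in siDyskerin, and HSPA5 and CALR are lower in both knockdowns than in siControl.

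The remaining chaperones and folding enzymes did not pass in any comparison. HSP90B1 (chromosome 12, 103930107 to 103953931) had 44433, 50772 and 48477 normalized counts in siDyskerin, 54571, 52863 and 52434 in siGAR1 and 46215, 57194 and 55135 in siControl. The siControl libraries spanned nearly the whole range because siControl 1 lay well below the other 2, and siControl overlapped with both knockdowns. Its log2 fold change was -0.14 in siDyskerin minus siControl (SE 0.08, adjusted p = 0.26) and 0.012 in siGAR1 minus siControl (SE 0.08, adjusted p = 0.95). PDIA4, the disulfide isomerase known as ERp72 (chromosome 7, 149003062 to 149028662), had 2592, 2583 and 2352 normalized counts in siDyskerin, 2358, 2523 and 2506 in siGAR1 and 3188, 2677 and 2813 in siControl. All 6 knockdown libraries were below siControl, with log2 fold changes of -0.20 (SE 0.08, adjusted p = 0.11) in siDyskerin and -0.23 (SE 0.08, adjusted p = 0.083) in siGAR1, each against siControl. SDF2L1, a lumenal partner of ER chaperone complexes (chromosome 22, 21642302 to 21644299), had 823, 801 and 758 normalized counts in siDyskerin, 803, 848 and 726 in siGAR1 and 969, 975 and 851 in siControl. Its knockdown libraries were again all below siControl, and the log2 fold change was -0.23 in each knockdown against siControl (SE 0.09 each, adjusted p = 0.12 in siDyskerin and 0.13 in siGAR1).

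Of the J-domain cochaperones that stimulate HSPA5, DNAJB9 (ERdj4; chromosome 7, 108569867 to 108574850) had nearly the same mean in the 3 groups. It had 625, 650.4 and 549 normalized counts in siDyskerin, 638, 575 and 600.3 in siGAR1 and 557, 621 and 642 in siControl. The 3 groups overlapped, and the log2 fold change was 0.0085 in siDyskerin and -0.0036 in siGAR1 against siControl (SE 0.10 each, adjusted p = 0.97 and 0.99). DNAJC3 (p58IPK; chromosome 13, 95677139 to 95794988) had 1850.1, 2063 and 2121 normalized counts in siDyskerin, 2455, 2444 and 2134 in siGAR1 and 2033, 2384 and 2304 in siControl. Each siDyskerin library was below each siGAR1 library, and siControl overlapped with both, with log2 fold changes of -0.16 in siDyskerin minus siControl (SE 0.09, adjusted p = 0.29) and -0.22 in siDyskerin minus siGAR1 (SE 0.09, adjusted p = 0.12).

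HERPUD1, an ER membrane protein of the degradation complex (chromosome 16, 56932142 to 56944864), had 9341, 9053 and 9242 normalized counts in siDyskerin, 9029.8, 9334 and 9411 in siGAR1 and 10984, 9975 and 9900.5 in siControl. Both knockdowns lay below siControl without overlap and overlapped with each other. The log2 fold change was -0.16 in siDyskerin (SE 0.06, adjusted p = 0.11) and -0.15 in siGAR1 (SE 0.06, adjusted p = 0.14), each against siControl, and neither passed. HERPUD1 and EDEM1, both of ER-associated degradation, thus lay on opposite sides of siControl in all 6 knockdown libraries.

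At the level of transcripts all 61 annotated transcripts of the 10 genes were tested. In siDyskerin against siControl 4 rose (all of EDEM1) and 7 fell (6 of CALR and the only one of HSPA5 among the 61), where 3.3% and 3.28% of 108808 transcripts did. In siGAR1 against siControl 1 rose, EDEM1-201, and 6 fell (5 of XBP1 and that of HSPA5), where 1.99% and 2.12% of transcripts did. Between siDyskerin and siGAR1 the 6 transcripts of XBP1 were higher and none was lower, where 2.81% and 2.73% were. Transcripts of a gene overlap in sequence, so these counts are not separate evidence.

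Over the 9 libraries, the log2 CPM of HSPA5 was followed most closely by CCNE1 (cyclin E1), RPL10A (a ribosomal protein), SRPK1 (a kinase of SR proteins), PEX19 (a peroxisome biogenesis factor) and GPBP1L1, none of them in the ER lists, with Pearson r of 0.97 to 0.99 as a description without a test. The 9 points share groups and libraries, so genes with a like difference between groups score high. Of the other 9 genes of the response, CALR had r = 0.88 with HSPA5, SDF2L1 0.87, PDIA4 0.78 and HERPUD1 0.77, whereas EDEM1 had -0.76, and XBP1, HSP90B1, DNAJC3 and DNAJB9 had 0.12 to 0.29.

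The other genes of the pathway were described in lists by function. Beside these lists, an unadjusted p under 0.05 was reached by 26.1% of all tested genes in siDyskerin against siControl, 24.0% in siGAR1 against siControl and 25.5% between the knockdowns, and DESeq2 passed 12.8%, 9.69% and 11.2% of the genes to which it gave an adjusted p. In edgeR 3.08% of all genes passed higher and 3.32% lower in siDyskerin against siControl. In siGAR1 against siControl 1.63% passed higher and 1.79% lower, and between the knockdowns 2.61% and 2.78%. Of 23 further ER chaperones and folding enzymes, none rose and 5 fell in siDyskerin against siControl, with a median log2 fold change of -0.093. The lowest log2 fold change of the list in this comparison was -0.81, further from 0 than that of TXNDC5. The 5 were HYOU1, TXNDC5, MANF, CRELD1 and FKBP14, of which MANF, CRELD1 and FKBP14 are named after their values were seen. CRELD1 also had a log2 fold change of -0.49 in siGAR1 against siControl with DESeq2 (adjusted p = 0.00091), but did not pass there in edgeR over the 9 libraries. TXNDC5, a disulfide isomerase, had 8317, 8354 and 7835 normalized counts in siDyskerin, 12256, 12573 and 12717 in siGAR1 and 12793, 12536 and 12363 in siControl. The siDyskerin libraries stood apart from both other groups, with a log2 fold change of -0.62 against siControl (SE 0.06, adjusted p = 9.2e-06) and -0.62 against siGAR1 (SE 0.06, adjusted p = 1.3e-05). HYOU1, the nucleotide exchange factor of HSPA5 known as GRP170, fell by 0.46 on the log2 scale in siDyskerin against siControl (SE 0.06, adjusted p = 0.00022) and had -0.17 (SE 0.06, adjusted p = 0.10) in siGAR1 against siControl. The count of 5 was 3 without siControl 3, siDyskerin 1 or siDyskerin 3. The MANF call was lost without any 1 of the 6 libraries of the comparison or siGAR1 2 (adjusted p of 0.012 to 0.049) and the FKBP14 call without siControl 3, siDyskerin 1 or siDyskerin 3 (adjusted p of 0.012 to 0.022).

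In siGAR1 against siControl 22 of these 23 had a log2 fold change below 0 and 11 lay below siControl without overlap, with 11 at an unadjusted p under 0.05. Of all genes, 14.1% lay below siControl without overlap in this comparison and 24.0% reached an unadjusted p under 0.05. UGGT1 alone passed in edgeR over the 9 libraries, and DESeq2 passed 3, all lower (UGGT1, CRELD1 and SIL1, the last named after its values were seen). UGGT1 is the enzyme that tags unfolded glycoproteins for another round of calreticulin binding. It fell by 0.30 on the log2 scale (SE 0.06, adjusted p = 0.0044), and the list's median was -0.15. The UGGT1 call was lost without siControl 2 or 3 or siGAR1 1 or 2 (adjusted p of 0.016 to 0.021), with lengthScaledTPM counts (adjusted p = 0.020) and with only the 6 libraries of the comparison (adjusted p = 0.016). UGGT1 had 16553, 16869 and 17264 normalized counts in siDyskerin, 13996, 13264 and 14244 in siGAR1 and 16815, 17139.6 and 17057 in siControl, so that siGAR1 stood below both other groups. Between the knockdowns TXNDC5 and HYOU1 were lower in siDyskerin and UGGT1 was higher, of which HYOU1 (log2 fold change -0.29, adjusted p = 0.0078) was lost without siControl 2 or 3, siDyskerin 1, 2 or 3 or siGAR1 1 or 2 (adjusted p of 0.011 to 0.047) and UGGT1 (0.29, adjusted p = 0.0039) without siDyskerin 1, 2 or 3 or siGAR1 1 or 2 (adjusted p of 0.011 to 0.028). Both were also lost with lengthScaledTPM counts (adjusted p = 0.010 and 0.019).

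Among 11 sensors and transcription factors, MBTPS1, the protease that starts the release of ATF6, fell by 0.44 on the log2 scale in siDyskerin against siControl (SE 0.06, adjusted p = 0.00027). It had 6727, 6459 and 6538 normalized counts in siDyskerin, 8905, 8685 and 8460.3 in siGAR1 and 9168, 8401 and 9278 in siControl. The siDyskerin libraries lay below both other groups, and siDyskerin minus siGAR1 was -0.40 (SE 0.06, adjusted p = 0.00087). NFYC, a subunit of the factor that binds the CCAAT part of the ERSE, rose by 0.30 on the log2 scale in siGAR1 against siControl (SE 0.06, adjusted p = 0.0073). That call was kept without siControl 1 and was lost without any 1 of the other 8 libraries (adjusted p of 0.014 to 0.048), with 1 transcript per gene (adjusted p = 0.011) and with only the 6 libraries of the comparison (adjusted p = 0.019). The sensors ERN1 and ATF6 passed in no comparison under any setting. EIF2AK3, which is PERK, had a log2 fold change of -0.29 in siDyskerin against siControl (SE 0.08, adjusted p = 0.027) and passed, lower, with 1 transcript per gene and with DESeq2. CREB3L2, named after its values were seen, had -0.29 in siGAR1 against siControl (SE 0.09, adjusted p = 0.065) and passed, lower, with 1 transcript per gene. DESeq2 passed 2 genes of the list in siDyskerin against siControl, 1 in siGAR1 against siControl and 2 between the knockdowns.

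Of 18 genes of ER-associated degradation, UBE2G2, a ubiquitin-conjugating enzyme, rose by 0.45 on the log2 scale in siDyskerin against siControl (SE 0.06, adjusted p = 0.00021). NPLOC4, a cofactor of the segregase VCP, fell by 0.40 in the same comparison (SE 0.08, adjusted p = 0.0032), a call lost without siControl 1, siDyskerin 2 or siDyskerin 3 (adjusted p of 0.011 to 0.021). In siGAR1 against siControl none of the 18 passed, with 5 at an unadjusted p under 0.05 and 1 passing with DESeq2, and between the knockdowns none passed, with 3 at an unadjusted p under 0.05 and 2 with DESeq2. NPLOC4 passed between the knockdowns, lower in siDyskerin, with no low-count filter, with the replicate block and without siControl 1 or siGAR1 3. Of 24 genes of the translocon and of transport from the ER, none passed in the 3 comparisons in edgeR over the 9 libraries. At an unadjusted p under 0.05 there were 6 in siDyskerin against siControl, 4 in siGAR1 against siControl and 9 between the knockdowns, and DESeq2 passed 1, 1 and 3 in these comparisons. Other edgeR settings passed up to 2, 1 and 2 of the 24, all higher, of which KDELR2, a receptor that retrieves ER proteins from the Golgi, and SRPRA, a subunit of the signal recognition particle receptor, are named after their values were seen. KDELR2 had a log2 fold change of 0.30 in siDyskerin against siControl (SE 0.09, adjusted p = 0.031) and SRPRA 0.34 in siGAR1 against siControl (SE 0.08, adjusted p = 0.014), and each passed in its comparison with no low-count filter, with 1 transcript per gene and with DESeq2.

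Among 11 targets of the PERK arm, 2 rose (VLDLR and NUPR1) and 1 fell (SESN2) in siDyskerin against siControl, and 2 fell (CHAC1 and ASNS) in siGAR1 against siControl. NUPR1, a stress-induced nuclear protein named after its values were seen, had a log2 fold change of 0.55 (SE 0.11, adjusted p = 0.0044) in siDyskerin against siControl. Its call was lost without any 1 of the 6 libraries of the comparison (adjusted p of 0.013 to 0.023) and with lengthScaledTPM counts, so that the count of 2 became 1. CHAC1, an enzyme that degrades glutathione, had 745, 636 and 598 normalized counts in siDyskerin, 281, 317 and 293 in siGAR1 and 626, 567 and 663 in siControl. The siGAR1 libraries stood below both other groups, with a log2 fold change of -1.06 (SE 0.11, adjusted p = 7.3e-05) against siControl, and siDyskerin minus siGAR1 was 1.15 (SE 0.11, adjusted p = 1.9e-05). ASNS, asparagine synthetase, fell by 0.56 on the log2 scale in siGAR1 against siControl (SE 0.06, adjusted p = 6.8e-05) and differed by 0.68 between the knockdowns (SE 0.06, adjusted p = 8.1e-06). VLDLR, a lipoprotein receptor, rose by 0.52 in siDyskerin against siControl (SE 0.07, adjusted p = 0.00025), and SESN2, a stress-inducible regulator of growth signalling, fell by 0.49 (SE 0.08, adjusted p = 0.0011). Directly between siDyskerin and siGAR1, 5 of the 11 were higher (CHAC1, ASNS, VLDLR, NUPR1 and ATF4) and 1 was lower (PPP1R15A), beside 2.61% and 2.78% of all genes, with a list median of 0.32. ATF4, the transcription factor of this arm, and PPP1R15A, which directs dephosphorylation of eIF2alpha, are named after their values were seen, with log2 fold changes of 0.48 (SE 0.09, adjusted p = 0.0034) and -0.51 (SE 0.10, adjusted p = 0.0043). The ATF4 call was lost without siDyskerin 1 or 2 or siGAR1 1 or 3 (adjusted p of 0.010 to 0.021), and the PPP1R15A call without siDyskerin 2 or 3 or siGAR1 1 or 2 (adjusted p of 0.015 to 0.025) and with lengthScaledTPM counts (adjusted p = 0.011).

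Of 18 cytosolic and mitochondrial chaperones, TRAP1 and HSPA1A fell in siDyskerin against siControl, by 0.31 and 0.44 on the log2 scale (adjusted p = 0.0069 and 0.0041). HSPA1A, the heat-inducible Hsp70, shares nearly all of its sequence with HSPA1B, so its reads cannot be assigned with certainty. The TRAP1 call was lost without any 1 of the 6 libraries of the comparison (siDyskerin 1, 2 or 3 or siControl 1, 2 or 3), with adjusted p of 0.012 to 0.040, and the HSPA1A call without siControl 1 or 3 or siDyskerin 2 or 3 (adjusted p of 0.014 to 0.021). Both were also lost with lengthScaledTPM counts (adjusted p = 0.012 each). In siGAR1 against siControl and between the knockdowns none of the 18 passed in edgeR over the 9 libraries or in DESeq2, with 5 and 7 at an unadjusted p under 0.05. Between the knockdowns HSP90AA1, named after its values were seen, passed, lower in siDyskerin, with no low-count filter and without siControl 1.

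**Figure D5:**
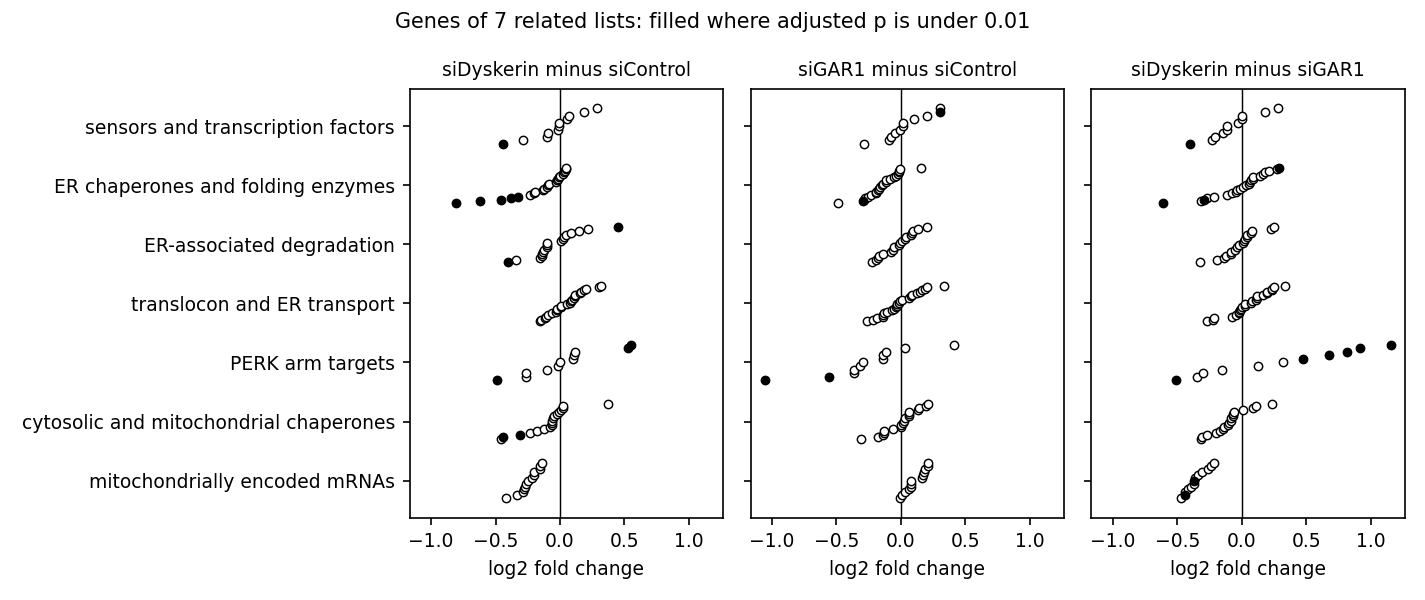
Log2 fold changes of the genes of 7 lists in the 3 comparisons, each point a gene, filled where the adjusted p was under 0.01. In siDyskerin minus siControl 5 of 23 ER chaperones and folding enzymes are filled, all below 0, and the widest spread between the knockdowns is in the PERK arm targets, up to 1.15.

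The 13 mRNAs encoded in mitochondria, which are cytoplasmic and bear on how clean the nuclei were, were lowest in siDyskerin, the group in which HSPA5 and CALR fell. They summed to 871, 908 and 1004 CPM in siDyskerin, 1075, 1142 and 1273 in siGAR1 and 1022, 1148 and 1017 in siControl. The siDyskerin libraries were below those of both other groups. All 13 had a negative log2 fold change in siDyskerin minus siControl (median -0.25, none past the threshold in edgeR, 6 at an unadjusted p under 0.05 and 2 with DESeq2) and in siDyskerin minus siGAR1 (median -0.37, 2 past the threshold in edgeR, all 13 at an unadjusted p under 0.05, 6 with DESeq2 and 10 lower without overlap, beside 14.6% of all genes). With no low-count filter 8 passed between the knockdowns, with 1 transcript per gene 5 and with the replicate block 4, and with lengthScaledTPM counts none did. The 2 were MT-CO2 (-0.44, SE 0.09, adjusted p = 0.0061) and MT-CO1 (-0.37, SE 0.08, adjusted p = 0.0063), subunits of cytochrome c oxidase. The MT-CO2 call was lost without any 1 of the 6 siDyskerin and siGAR1 libraries (adjusted p of 0.011 to 0.033) and the MT-CO1 call without siControl 3, siDyskerin 1, 2 or 3 or siGAR1 1 or 3 (adjusted p of 0.011 to 0.035). In siGAR1 minus siControl, where XBP1 fell and HSPA5 was as low as in siDyskerin, 12 of the 13 were above 0 with a median of 0.081. The 7 nuclear-retained long noncoding RNAs summed to 1222, 1276 and 1334 CPM in siDyskerin, 1419, 1114 and 1662 in siGAR1 and 1041, 1275 and 1369 in siControl, and the groups overlapped. Of the 6 that were tested, all 6 were above 0 in siDyskerin minus siControl (median 0.17, 3 without overlap) and 5 in siGAR1 minus siControl (median 0.17, 1 without overlap), which are the comparisons in which HSPA5 and CALR were below 0. None of them passed in edgeR, with 3 and 1 at an unadjusted p under 0.05 and 1 and none with DESeq2. Of all genes, 16.0% were higher without overlap in siDyskerin than in siControl, and 13.6% in siGAR1 than in siControl. The part of nuclear purity and cytoplasmic carryover in the values of the ER genes was not tested.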

How the data were processed

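Nuclear RNA of 9 libraries (RiboCop rRNA depletion, CORALL Total RNA-Seq) was quantified per transcript by the authors with Salmon 1.2.0 against GENCODE 27 on GRCh38, and the estimated counts and TPM values were deposited in one table per library. Per the submitters' processing notes and the study's methods, reads had been trimmed with Trim Galore 0.6.4 and cleared of rRNA and tRNA with Bowtie2 2.4.1. Of the deposited counts, 99.9996% were whole within 0.001. In 1566 pairs in which a transcript lay wholly within a longer one of its gene (none in the 10 genes, at least 10 reads each), the longer never had fewer reads in any of the 9 libraries, so shared reads appear to be repeated and gene sums to over-count reads.

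Transcripts were matched by identifier to GENCODE 44 (195887 of 200401), estimated counts were rounded and summed per gene, and 18444 genes were kept by filterByExpr. edgeR 4.0.16 (TMM factors 0.982 to 1.02, robust quasi-likelihood F-test) was fitted to the 9 libraries at once with no covariate, in R 4.3.3, with Benjamini-Hochberg adjustment over all genes and a threshold of 0.01. Transcripts (108808) were tested in the same way. Each SE was derived as the absolute log2 fold change divided by the square root of the quasi-likelihood F statistic, and SD are over 3 libraries. The common biological coefficient of variation was 0.0886. Its size beside the counting error of genes and transcripts with few reads was not tested. The alternatives were DESeq2 1.42.0, relative log expression factors, library size alone, no low-count filter, lengthScaledTPM counts, 1 transcript per gene, only the 6 libraries of a comparison, a replicate block and leaving out each library. The 10 genes, the lists and the tests were chosen with earlier results of these data known. Genes named besides the 10 are up to 2 per list and comparison with the smallest p among those that passed, the 5 closest to HSPA5, and DKC1 and GAR1. Sensors and markers were named from the lists, and any further gene after its values were seen. Promoter sequences are from RefSeq (GRCh38.p14), and the XBP1 intron is from GENCODE 44 transcripts.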

Additional observations from a re-analysis of the deposited data

Results flagged for a closer look

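XBP1 differed between the 2 knockdowns, each set against the same siControl libraries. The test of the difference itself, siDyskerin minus siGAR1, gave a log2 fold change of 0.60 (SE 0.06, adjusted p = 4.5e-05 in edgeR's quasi-likelihood test, 3 libraries each), with all 3 siDyskerin libraries above siControl and all 3 siGAR1 libraries below it. No other gene of the 10 passed this test. The calls of the 10 were recomputed without each library in turn, but no test for a stray library was made because groups of 3 are too small for that.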

How the results depend on the processing

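No call of the 10 genes turned round in direction under any alternative. In siDyskerin against siControl, 3 of the 10 passed in every setting that kept all libraries of the comparison, and 1 to 3 passed when single libraries were left out, EDEM1 always among them. In siGAR1 against siControl, where 1 passed, 2 passed with library size alone, with no low-count filter, with lengthScaledTPM counts and with the replicate block (XBP1 and HSPA5), and 3 passed with 1 transcript per gene and with DESeq2 (EDEM1 besides). Between siDyskerin and siGAR1, where 1 passed, 2 passed with DESeq2 (XBP1 and EDEM1). The cause of these differences was not tested. Over all genes the counts past the threshold were 1180 in siDyskerin against siControl, 630 in siGAR1 against siControl and 994 between the knockdowns, against 1944, 1371 and 1749 with DESeq2 and 1986, 1408 and 1740 with no filter. With lengthScaledTPM counts they were 393 in siGAR1 against siControl and 657 between the knockdowns, with 1 transcript per gene 1011 in siGAR1 against siControl, and leaving out 1 library gave 701 to 1424, 289 to 583 and 462 to 1110. Whether the replicate numbers pair the samples was not settled. After group means were removed, libraries of the same number correlated at -0.072 to 0.10 (9 pairs) and others at -0.10 to 0.062 (18 pairs). The replicate block gave 3, 2 and 1 of the 10 genes in the 3 comparisons and 12, 8 and 7 of their transcripts, against 11, 7 and 6 without it. Over all genes the block gave 1318, 711 and 1050, against 1180, 630 and 994 without it. The share of XBP1-202 computed from TPM differed by 0.36, 0.057 and 0.30 percentage points in the 3 comparisons. The groups overlapped in each (two-sided exact permutation p = 0.3, 0.8 and 0.4). Of the related lists, the PERK arm count of 2 in siGAR1 against siControl, both lower, was 5 with DESeq2 and with 1 transcript per gene (1 higher and 4 lower each). With no filter it was 4 (1 higher and 3 lower). The count of 2 cytosolic and mitochondrial chaperones in siDyskerin against siControl, both lower, was 5 with each of these settings (1 higher and 4 lower each). The count of 1 further ER chaperone in siGAR1 against siControl was 2 with no filter, with 1 transcript per gene and with the replicate block, 3 with DESeq2, and 0 with lengthScaledTPM counts and with only the 6 libraries of the comparison. Of the transcripts of the 10 genes, EDEM1-207 had the fewest reads in siControl, with a normalized mean of 26.6. Its log2 fold change was 0.80 (SE 0.25, adjusted p = 0.032) in siDyskerin against siControl and did not pass. The part of read depth in this was not tested.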
